A study of Mus musculus with 6 samples.

Results

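The regions described here are 613 H3K27me3 peaks of intermediate length that ended close to an H3K36me3 peak without entering it, out of 3999 H3K27me3 peaks listed for mouse C3H10T1/2 cells. They were chosen by position alone. A member is at least 5 kb and less than 100 kb long, shares no base with any H3K36me3 peak, and has its nearest H3K36me3 peak on the same chromosome at most 10 kb away, counted from edge to edge. Of the 2222 H3K27me3 peaks in that length range, 28 shared a base with H3K36me3, 1581 lay farther than 10 kb from it, and the remaining 613 are the members. They made up 27.9% of the 2194 mid-length peaks that shared no base, which is the result of the rule and not a finding; over H3K27me3 peaks of every length without shared bases the share was 25.6%.

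C3H10T1/2 cells are multipotent mesenchymal cells from C3H mouse embryos, kept as an established line. The cells, at passages 10 to 15, stably expressed histone H3.3 with a FLAG-HA tag, either wildtype or carrying the K36M mutant, and they keep their own histone genes besides the added one. The promoter of the added gene and the number of clones are not stated in the labels. For each of the 2 genotypes there was 1 library of chromatin precipitated with an antibody to H3K36me3, 1 with an antibody to H3K27me3 and 1 of input DNA, so 6 libraries in all and no replicates. The peaks came as 1 list per mark that names no genotype, and every comparison below is therefore between positions in the lists and not between wildtype and K36M cells.

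H3K27me3 is laid down by Polycomb repressive complex 2 (PRC2), whose catalytic subunit is Ezh2 or Ezh1, and it covers silent developmental genes in broad domains. H3K36me3 is placed by Setd2, which travels with elongating RNA polymerase II, so that it fills the bodies of transcribed genes. Methylation of lysine 36 hinders PRC2 on the same histone tail, and the K36M histone is known as an inhibitor of H3K36 methyltransferases. A place where a peak of one mark ends and a peak of the other begins is thus a boundary between repressed and transcribed chromatin as these marks are generally read. Gene names could not be attached to the members, because no annotation of the build of the lists (mm9) was at hand, and no sequence is shown for the same reason.

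The typical member met H3K36me3 on 1 side only. H3K36me3 lay within 10 kb on a single side of 552 members and on both sides of 61, or 9.95% (exact Clopper-Pearson 95% interval 7.7 to 12.6, which covers counting error only and treats peaks as independent). The members therefore had 674 borders, a border being the interval without a peak of either list between the edge of a member and the H3K36me3 peak beside it. Among mid-length peaks without shared bases, 2.78% were bordered on both sides, against 2.26% of peaks under 5 kb, 2.69% of those of 100 kb and longer and 2.64% of H3K27me3 peaks of every length. Of the peaks with any border, 14.9% of those under 5 kb and 8.59% of those of 100 kb and longer were two-sided, so that the members lay between the shorter and the longer peaks. The number of two-sided members follows the distance allowed: it was 17 with a limit of 5 kb and 158 with a limit of 20 kb.

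A border on one side was only slightly more frequent where the other side had one. Of the 314 mid-length peaks bordered on their lower side (towards smaller coordinates), 19.4% were also bordered on the higher side (95% interval 15.2 to 24.2), against 15.9% (14.3 to 17.6) of the 1880 that were not. Starting from the higher side, the values were 16.9% (13.2 to 21.2) of 360 and 13.8% (12.2 to 15.5) of 1834. The intervals overlapped in both directions. One-sided members had their border on the higher side in 299 cases and on the lower side in 253, with more on the higher side on 12 chromosomes, fewer on 5 and equal numbers on 3. No test was made of these shares, since peaks of the lists are not replicates.

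The listed peaks of both marks rarely met edge to edge at the borders. The 28 mid-length peaks that shared a base with H3K36me3 had been left out by the rule. The median border was 5.4 kb wide (interquartile range 3.8 to 7.4 kb), and only 26 of the 674 borders, 3.86%, were 2 kb or less. A single border had a width of 0 bp, which means that the listed peaks met without a base between them. Borders above 2 kb and up to 8 kb made up 78.2% of the total. Counted in steps of 1 kb, the number went from 6 borders up to 1 kb and 20 from 1 to 2 kb to 81 from 2 to 3 kb, reached 101 from 5 to 6 kb, and came down to 61 from 9 to 10 kb. Beyond the limit of the rule the decline went on, with 48 sides of mid-length peaks from 10 to 11 kb and 19 from 19 to 20 kb. The limit of 10 kb thus falls within a continuous slope, and does not mark a separate group of peaks.

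**Figure D1:**
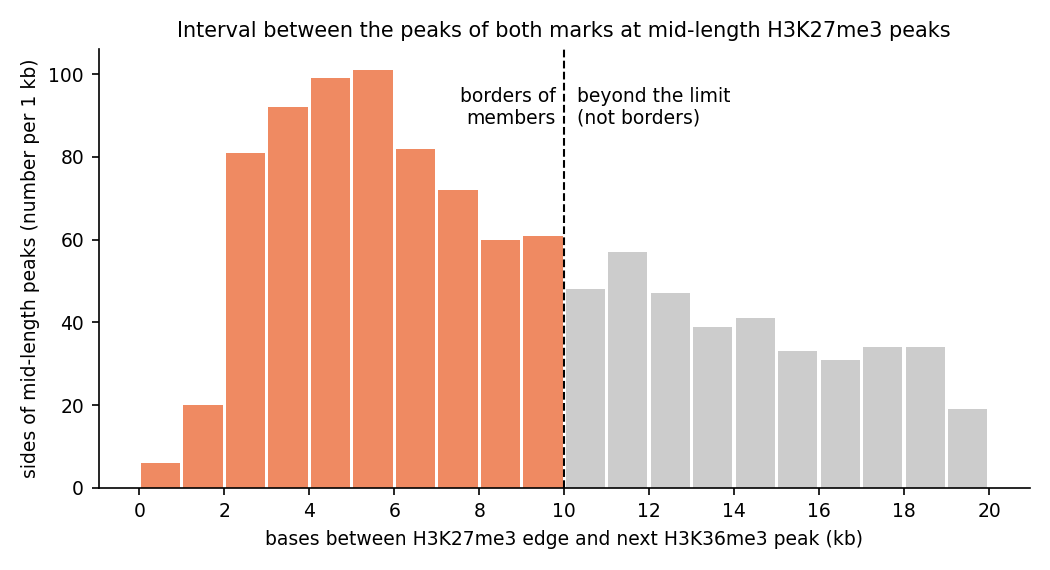
Number of sides of mid-length H3K27me3 peaks (vertical axis, per 1 kb step) by the number of bases to the next H3K36me3 peak (horizontal axis, kb), with the borders of members in orange and sides beyond the limit of 10 kb in grey. Counts go from 6 in the first step to 101 from 5 to 6 kb and decline from there without a break at 10 kb.

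Border width was alike for H3K27me3 peaks of other lengths. The median width within the same 10 kb was 5.6 kb for peaks of 100 kb and longer (95% interval of the median 5 to 6.2 kb) and 6.2 kb for peaks under 5 kb (5.6 to 6.8 kb), beside 5.4 kb (5.2 to 5.6 kb) for the members. Borders of 2 kb or less were 5.4% of 278 in the longest class and 3.09% of 162 in the shortest. The widths of the members' borders are bounded by the rule and are given as a description.

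In two-sided members the nearer border had a median width of 4 kb and the farther one 6.4 kb, with a median difference of 1.8 kb. The nearer H3K36me3 peak was the longer of the pair in 31 of the 58 members in which both widths and lengths differed. Across the 61 two-sided members, the 2 widths had a Pearson correlation of 0.168 on log10 widths with 200 bp added (Spearman 0.0806). The points of this correlation share the same lists and the same upper limit.

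One-sided and two-sided members overlapped over nearly the whole range of lengths. One-sided members had a median length of 29.8 kb (interquartile range 14.15 to 55.25 kb, 5 to 99 kb in all). Two-sided members had a median of 26 kb (10 to 59.6 kb, 5.4 to 91 kb in all), and the 95% interval of that median, 15 to 40 kb, contained the one-sided median. With a limit of 5 kb the medians lay farther apart, at 15.8 kb (9.8 to 28.8) for 17 two-sided and 33 kb (27 to 38.8) for one-sided members. With H3K36me3 restricted to peaks of at least the median length of the list, the order turned, to 57.2 kb for 19 two-sided and 33 kb for the one-sided peaks. By length class, 16% of the 94 members under 10 kb were two-sided (95% interval 9.22 to 25), against 8.59% of 128 members from 10 to 20 kb, 7.51% of 213 from 20 to 50 kb and 10.7% of 178 from 50 to 100 kb. The intervals of these 4 classes overlapped.

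As a group, the members were somewhat longer than the mid-length peaks farther than 10 kb from H3K36me3. The medians were 28.8 kb (95% interval 26 to 33 kb) and 24.8 kb (23.4 to 27.2 kb), and the members' median was the longer on 15 of 20 chromosomes. The shortest class stood lowest: 20.9% of mid-length peaks from 5 to 10 kb were members (95% interval 17.2 to 24.9), whereas the 3 classes above 10 kb held 29.2%, 30.2% and 29.7%. Within the members, the nearest border had a median width of 5.2 to 5.6 kb in each of the 4 length classes.

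**Figure D2:**
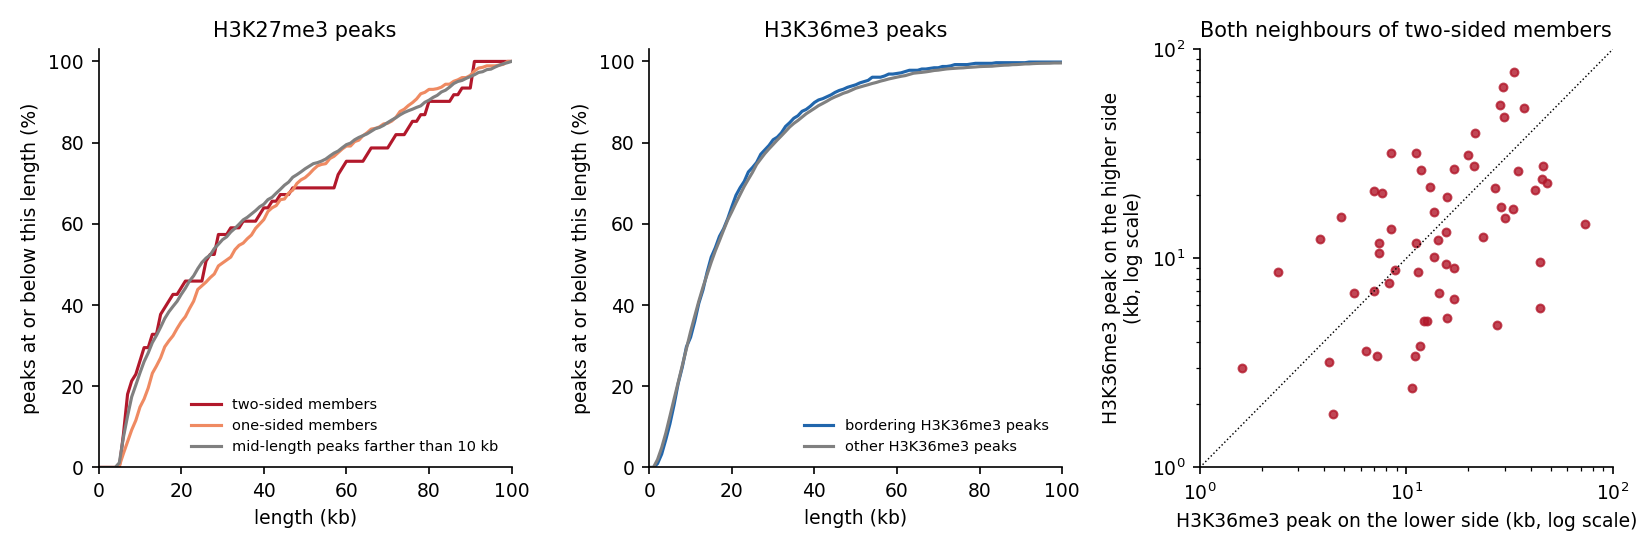
Left and middle, share of peaks (%) at or below each length (kb) for one-sided members, two-sided members and mid-length H3K27me3 peaks farther than 10 kb from H3K36me3, and for H3K36me3 peaks beside members and all others; right, lengths of the H3K36me3 peaks on the lower and higher side of the 61 two-sided members on log axes, with the line of equal length. The curves of bordering and other H3K36me3 peaks lie close together, with medians of 14.4 and 15.0 kb.

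The H3K36me3 peaks beside the members had the lengths of H3K36me3 peaks in general. The 674 borders were made by 643 H3K36me3 peaks, 8.27% of the 7773 listed, since 31 of them had a member on each side. Their median length was 14.4 kb (interquartile range 8.2 to 25.8 kb, 95% interval of the median 13.6 to 15.8 kb), and that of the 7130 others was 15 kb (8 to 26.35 kb, 14.6 to 15.2 kb). The bordering median was the shorter on 10 chromosomes and the longer on 10. H3K36me3 peaks under 5 kb made up 9.64% of the bordering and 11.8% of the other peaks, and those of 50 kb and longer 5.91% and 6.65%. With H3K36me3 restricted to peaks of at least its median length, the bordering peaks were marginally the longer, at 26.5 against 26.2 kb.

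Neighbour length changed little with the width of the border. The median H3K36me3 neighbour was 12.6 kb at borders up to 2 kb, 14.2 kb from 2 to 4 kb, 13.5 kb from 4 to 6 kb, 15.5 kb from 6 to 8 kb and 15 kb from 8 to 10 kb, with interquartile ranges of 7 to 19.2 kb in the first class and 9 to 25.2 kb in the last. Across the 674 borders, the Pearson correlation of border width with neighbour length was 0.0952 on log10 values (Spearman 0.0597). Border width and member length were no closer, at 0.0352 (Spearman 0.0158). The member was longer than its H3K36me3 neighbour at 470 of 674 borders, 69.7%, with a median ratio of 1.94. Longer members had slightly longer neighbours, from a median of 11.8 kb beside members under 10 kb to 16.8 kb beside those of 50 to 100 kb, and the correlation across borders was 0.111 (Spearman 0.108). Two-sided members enter these values with both of their borders.

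The H3K36me3 peaks on the 2 sides of a two-sided member resembled each other in length. The shorter neighbour had a median of 9.4 kb and the longer one 17 kb, and the median ratio between them was 1.89. Their log10 lengths had a Pearson correlation of 0.510 over 61 members (Spearman 0.514), and 0.481 without the 2 members whose lower neighbour lay farthest from the median. For comparison, consecutive H3K36me3 peaks of the whole list had a correlation of 0.067 and a median ratio of 2.2 over 7753 pairs. Pairs as far apart as the neighbours of two-sided members, but with no H3K27me3 peak between them, had 0.0692 and 2.16 over 2178 pairs. This correlation was picked out after its value was seen and no test was made of it.

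In H3K27me3 peaks of other lengths, of which few were two-sided, the correlation was lower, while the ratio was lower in one class and higher in the other. Two-sided peaks under 5 kb gave a correlation of 0.0184 over 21 peaks with a median ratio of 1.81, lower than the 1.89 of the members, and those of 100 kb and longer gave 0.0605 over 22 with a ratio of 2.71. Within the members it was 0.605 over the 35 of 20 kb and longer and 0.248 over the 26 shorter ones. The value was 0.651 over the 17 two-sided members at a limit of 5 kb, and 0.275 over 158 at 20 kb. Among H3K36me3 peaks of at least the median length, a choice that narrows the range of lengths, it was 0.0137 over 19, with a ratio of 1.66. Whether these values differ from each other beyond chance was not tested.

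The longest two-sided member was 91 kb long, and 3 others shared the next length of 90.2 kb. The member of 91 kb at chr8:26956201-27047200 lay between H3K36me3 peaks of 27 kb and 21.6 kb, with borders of 9.2 and 7.4 kb. One member of 90.2 kb, at chr11:98451001-98541200, had borders of 5.2 and 4.4 kb, and its neighbours were short, at 3.8 and 12.4 kb. Another, at chr16:14202601-14292800, stood between peaks of 28.6 and 17.6 kb with borders of 9.2 and 4.4 kb. The last of that length, at chr4:49551601-49641800, had borders of 5.2 and 3.8 kb to peaks of 11.2 and 31.8 kb. Over all 61, the stretch from one H3K36me3 edge to the other measured 38 kb in the median (13.2 to 107.6 kb), and H3K27me3 filled 71.8% of it in the median.

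The 3 most tightly held two-sided members all lay on chromosome 17. At chr17:8340801-8357000 a member of 16.2 kb was separated by 1.4 kb from an H3K36me3 peak of 20 kb and by 2 kb from one of 31.2 kb. On the same chromosome, at chr17:7167201-7183000, a member of 15.8 kb had borders of 2.4 and 1.6 kb to peaks of 7.6 and 20.6 kb. The third, of 71 kb at chr17:33692001-33763000, began 0.4 kb after an H3K36me3 peak of 28.4 kb and ended 4.4 kb before one of 54 kb. The sum of both borders was 10.6 kb in the median two-sided member.

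On the open side of the longest one-sided members, the next H3K36me3 peak lay 27.8 to 824.2 kb away. The median over one-sided members was 139 kb. A pair of 99 kb members lay on chromosome 7. The one at chr7:36226801-36325800 had an H3K36me3 peak of 5.6 kb at 6.8 kb on the higher side and the next one at 31 kb on the open side. The one at chr7:138601401-138700400 had a peak of 13.4 kb at 4.2 kb and the next at 60.6 kb. Members of 98.2 kb came next. The one at chr2:28571801-28670000 had H3K36me3 at 7.6 kb on the higher and 27.8 kb on the lower side, and the one at chr4:3767201-3865400 at 4.8 kb on the lower and 824.2 kb on the higher side.

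The longest H3K36me3 neighbours stood beside members of moderate length. An H3K36me3 peak of 100.2 kb ended 4.2 kb before a member of 29.6 kb at chr11:83222001-83251600. Peaks of 91.6 kb and 83.4 kb ended 6 kb and 7.6 kb before members of 22.2 kb at chr15:27564601-27586800 and 25 kb at chr4:86510601-86535600. On the open side of these members the next H3K36me3 peak was 35.8 kb, 73.6 kb and 1823.6 kb away. All 3 are one-sided and shorter than their neighbour, which held for 158 of the 552 one-sided members.

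**Figure D3:**
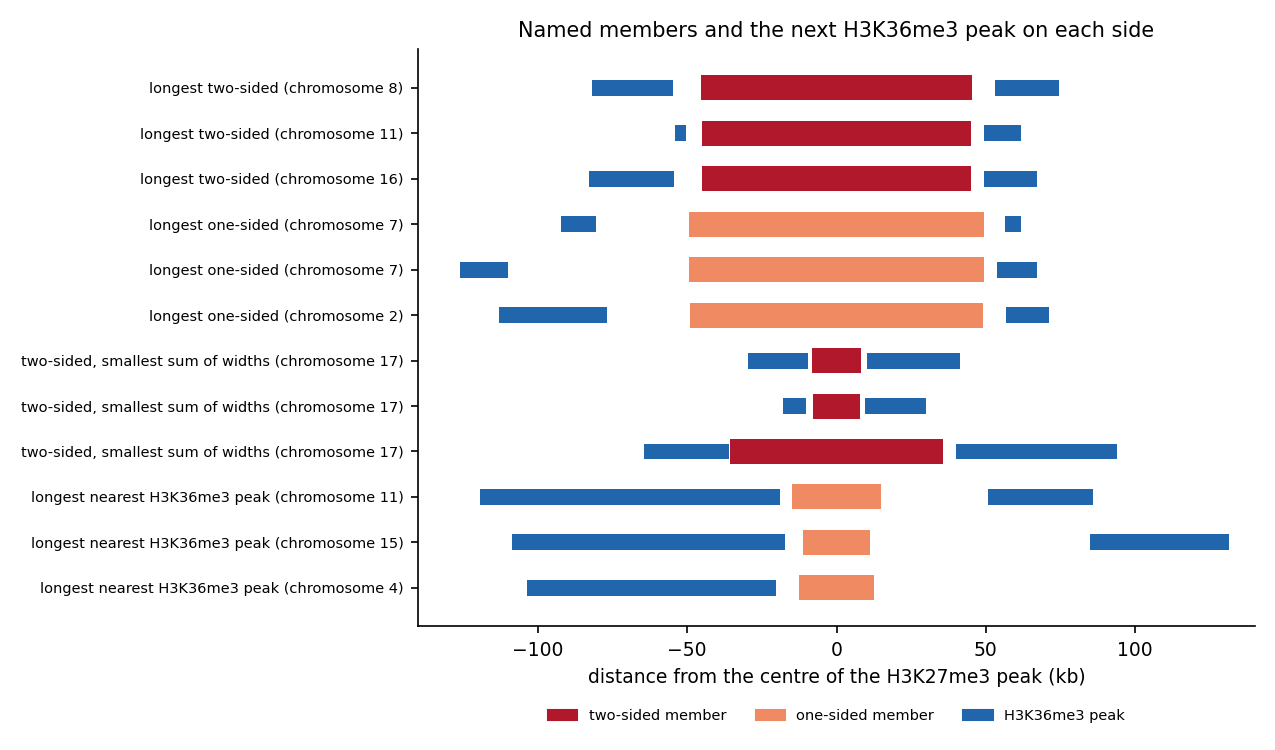
Members named above (12, ties left out), drawn to scale and centred on the H3K27me3 peak (horizontal axis, kb from its centre), with the next H3K36me3 peak on each side in blue where it falls within the range drawn. Two-sided members are red and one-sided members orange; the 3 two-sided members with the smallest summed borders leave 0.4 to 4.4 kb between the marks on either side, and the one-sided members leave 27.8 kb or more on their open side.

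On the open side of one-sided members, H3K36me3 lay beyond 10 kb by definition. Its median distance there was 139 kb (interquartile range 37 to 497 kb), and 2 members had no further H3K36me3 peak up to the end of the list on their chromosome. H3K36me3 came within 20 kb on the open side of 77 members (13.9%), within 50 kb of 177 (32.1%) and within 100 kb of 232 (42%). The first peak met on the open side was another H3K27me3 peak in 257 members, 46.6%, at a median of 41.6 kb, and an H3K36me3 peak in 294, 53.3%, at a median of 46.7 kb. The remaining member had neither on that side. Matching values for the sides of other H3K27me3 peaks are not given, so no trait particular to members can be read from these shares.

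Behind the border, H3K36me3 peaks beside a single member were followed by their own mark about as often as H3K36me3 peaks in general. Among the 612 H3K36me3 peaks beside a single member, the next peak on the far side was H3K36me3 in 406 (66.3%, 95% interval 62.4 to 70.1), at a median of 16.6 kb, and H3K27me3 in 205, at a median of 33.8 kb. Over the sides of all H3K36me3 peaks, the next peak was H3K36me3 in 68.9%. That share keeps every side, whereas the 66.3% leaves out the 31 H3K36me3 peaks with a member on each side. Their far side meets H3K27me3 first, so the 406 are a smaller share of all 643 bordering peaks. Another H3K36me3 peak lay within 10 kb on the far side of 25.5% of the 612 (22.1 to 29.1) and 24.3% of the 643. Both were close to the 24.6% of sides of all H3K36me3 peaks that had one. H3K27me3 lay within 10 kb on both sides of 74 of the 643 bordering peaks, or 11.5% (9.15 to 14.2). Of the single sides of all H3K36me3 peaks, 7.29% had H3K27me3 that near. These shares are unlike measures, since bordering peaks have H3K27me3 on at least 1 side by the rule. The second H3K27me3 peak was another member in 31 cases, a peak of 100 kb or longer in 31, one under 5 kb in 11 and one that shared bases in 1. These 74 H3K36me3 peaks had a median length of 13.4 kb (95% interval 9 to 15.8 kb), and the other 569 one of 14.8 kb (13.8 to 16.6 kb). The 31 H3K36me3 peaks between members linked 62 members into pairs, and no longer series of members was found.

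The nearest other H3K27me3 peak was a mid-length peak farther than 10 kb from H3K36me3 in 34.6% of members. That share was higher over all H3K27me3 peaks, 41.1%, and over the mid-length peaks farther away, 45.3%. The nearest other peak was itself a member in 24.8% of members (95% interval 21.4 to 28.4). This was so for 16% of all H3K27me3 peaks and 12.8% of the mid-length peaks farther away. The 24.8% includes pairs that share an H3K36me3 peak, which the rule makes members together. Without the members of such pairs it was 18.1% (15 to 21.6) of 551. That interval contains the 16% over all peaks, which still counts such pairs. It lies above the interval for the mid-length peaks farther away, 11.2 to 14.6. No test was made of these shares. Another H3K27me3 peak of any length lay within 50 kb of 46% of members, beside 41.2% of the mid-length peaks farther away and 39.7% of all H3K27me3 peaks. The share was 55.7% for two-sided (42.4 to 68.5) and 44.9% for one-sided members (40.7 to 49.2). The median gap to the nearest other H3K27me3 peak was 58.4 kb for members, with 38.6 kb for two-sided and 60.8 kb for one-sided ones, and 73.8 kb for the mid-length peaks farther away.

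Coverage by H3K36me3 outside the edges was high on bordered sides up to 50 kb and differed little between sides beyond 200 kb. On the bordered side of one-sided members it covered 1.03% of bases within 2 kb of the edge, 20.5% from 2 to 5 kb, 69% from 5 to 10 kb and 73.7% ± 9.3 (SD over 20 chromosomes) from 10 to 20 kb. It was 37.2% ± 7.86 from 20 to 50 kb and 16.4% ± 3.82 from 50 to 200 kb. The open side is at 0 up to 10 kb by the rule, and stood at 13.8% ± 6.31 from 20 to 50 kb and 12% ± 4.8 from 50 to 200 kb. From 50 to 200 kb the bordered side was above the open side on 18 of 20 chromosomes, with a median difference of 4.71 percentage points. From 200 to 500 kb it was above on 9 of 20, at 11% and 10.6%. Long H3K36me3 peaks that start inside the limit reach into the nearer of these bins.

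Compared with mid-length peaks farther from H3K36me3, members had more of both marks from 50 to 500 kb outside the edge. Nearer to the edge, where the rule places H3K36me3 beside members, H3K27me3 was lower or alike. From 10 to 20 kb H3K27me3 covered 5.52% of bases beside members and 8.66% beside the others, and from 20 to 50 kb 13.8% and 13.4%, with members higher on 11 of 20 chromosomes. From 50 to 200 kb outside the edges, H3K36me3 covered 14.3% ± 3.68 beside members and 11.6% ± 2.81 beside the others, and was higher beside members on 16 of 20 chromosomes. H3K27me3 covered 19.1% ± 6.43 and 15% ± 4.25, and was higher beside members on 14 of 20. The SD of each set's level over chromosomes was larger than either difference. Taken within chromosomes, the difference ran from -5.85 to 8.34 percentage points for H3K36me3 (median 2.01). For H3K27me3 it ran from -9.28 to 10.2 (median 2.32). No test was made. From 200 to 500 kb H3K36me3 covered 11% ± 2.71 beside members and 9.79% ± 1.52 beside the others. Members were higher on 14 of 20 chromosomes, with a median difference of 1.04 points. H3K27me3 covered 17.1% ± 5.48 and 14% ± 3.44 there, higher beside members on 15 of 20 (median difference 2.58). From 500 to 1000 kb the values were 9.45% and 8.6% for H3K36me3, and 14.7% and 13.4% for H3K27me3, with members higher on 12 and 11 of 20 chromosomes. Over the whole span between the outermost peaks, H3K36me3 covered 6.13% and H3K27me3 9.33%.

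H3K27me3 beyond the borders was lower on the bordered than on the open side up to 50 kb. The rule places H3K36me3 on the bordered side, where it covered 73.7% of bases from 10 to 20 kb and 37.2% from 20 to 50 kb. On the open side these values were 7.42% and 13.8%. Few H3K27me3 peaks share bases with H3K36me3, so less room was left for H3K27me3 on the bordered side by construction. From 10 to 20 kb H3K27me3 covered 2.48% of bases on the bordered side of one-sided members and 9.32% on the open side. From 20 to 50 kb it was 11.3% ± 6.43 and 15.2% ± 6.19, higher on the bordered side on 6 of 20 chromosomes. From 50 to 200 kb it was 19.1% and 18.6%, above on the bordered side on 12 of 20 chromosomes. Two-sided members had 21.5% ± 13.7 there and 20% ± 12.4 from 200 to 500 kb, over the 18 chromosomes that hold one. The first 10 kb are at 0 on every side because no gap in the H3K27me3 list is under 10.2 kb.

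**Figure D4:**
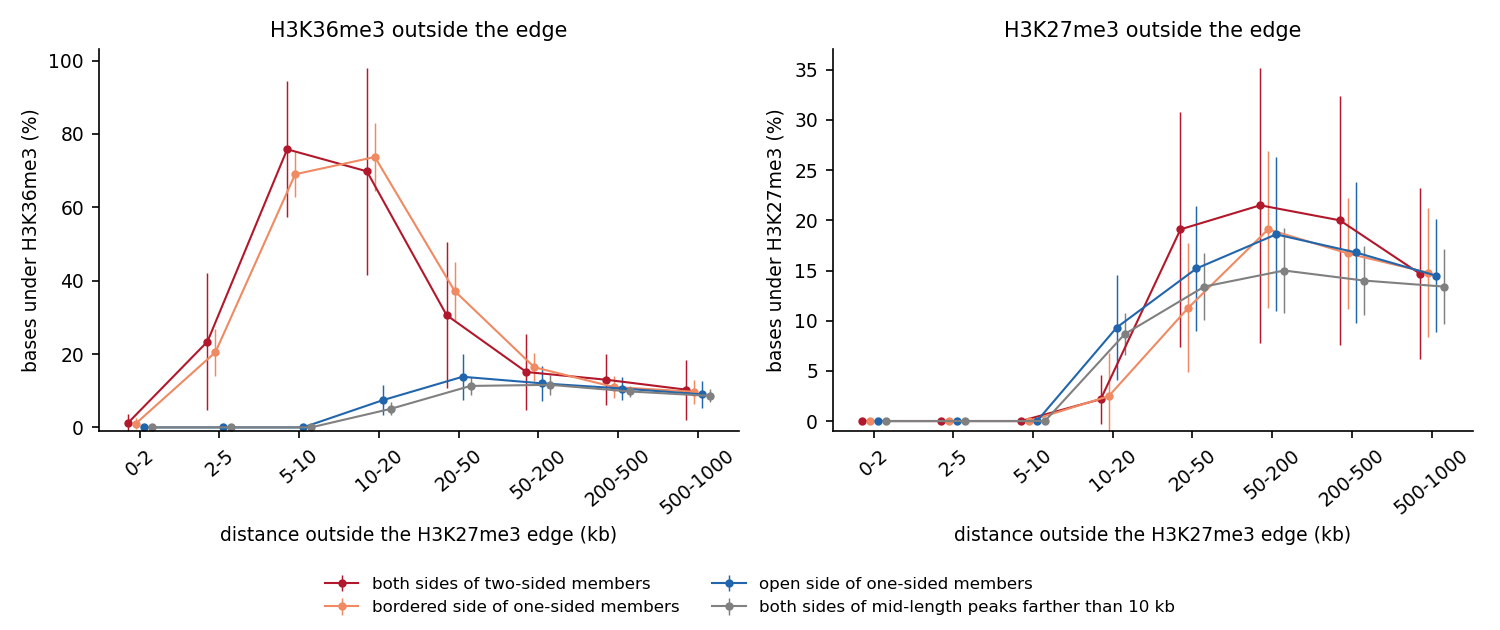
Share of bases (%) under H3K36me3 (left) and H3K27me3 (right) by distance outside the edge of the H3K27me3 peak (kb, unequal steps), for two-sided members, the bordered and the open side of one-sided members, and mid-length peaks farther than 10 kb from H3K36me3; points are totals over all sides and bars are 1 SD over chromosomes. H3K36me3 reaches 73.7% on bordered sides from 10 to 20 kb, and from 200 to 500 kb all 4 sets lie between 9.79% and 13%.

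Members occurred on every chromosome, in unequal shares. They were 39.3% of the mid-length peaks without shared bases on chromosome 17 (48 of 122, 95% interval 30.6 to 48.6) and 39.2% on chromosome 2 (73 of 186, 32.2 to 46.7), both above the 27.9% of the whole set. Chromosome 9 had the lowest share, 14.9% (17 of 114, 8.93 to 22.8), and its interval lay below that value. The intervals of the other 17 chromosomes contained it. Over the 20 chromosomes, the share of members and the coverage by H3K36me3 had a Pearson correlation of 0.512 (Spearman 0.573), given as a description. The rule asks for H3K36me3 within 10 kb, so a positive value is favoured by construction. On chromosome 9, H3K36me3 covered 6.88% of the span. Two-sided members numbered 7 each on chromosomes 2 and 11 and 6 each on chromosomes 1 and 17, and chromosomes 9 and 14 held none.

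**Figure D5:**
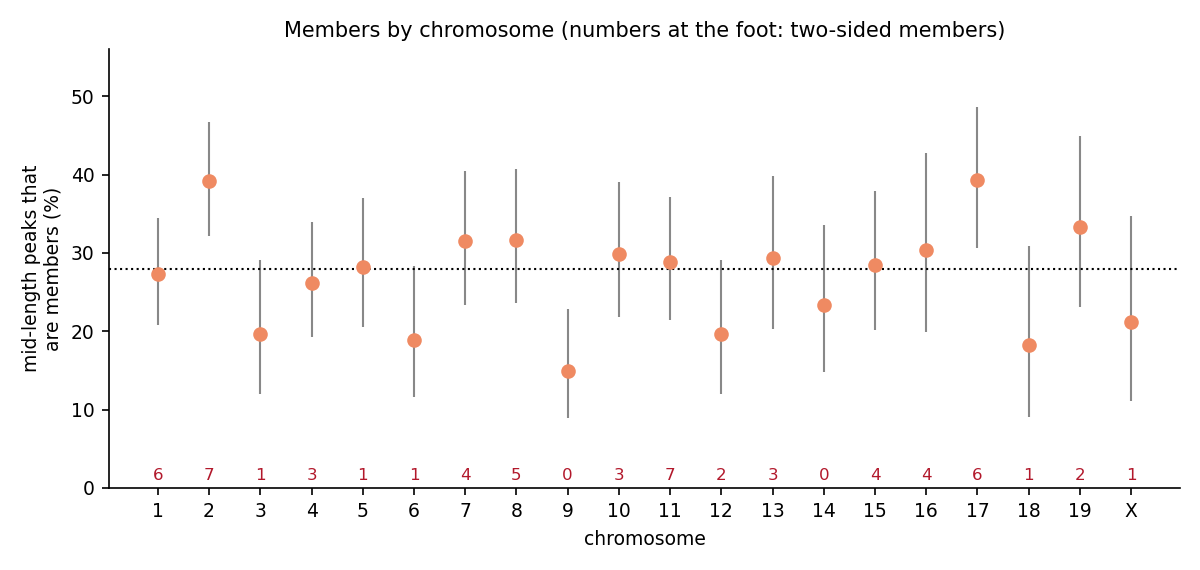
Share of mid-length H3K27me3 peaks without shared bases that are members (%, vertical axis) on each chromosome, with exact 95% intervals as bars, the share over all chromosomes as a dotted line at 27.9%, and the number of two-sided members at the foot. Chromosomes 2 and 17 lie above the line and chromosome 9 below it, with intervals that do not reach it.

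Peaks just inside and just outside the distance limit and the lower length limit differed by a single window of 200 bp, and those at the upper length limit by 1 kb. A member of 19.4 kb at chr1:107662201-107681600 was exactly 10 kb from an H3K36me3 peak of 70.8 kb, as were 10 other members at their nearest side, and a peak of 10 kb at chr1:135567401-135577400 missed the limit at 10.2 kb. There were 54 members with a nearest border above 9 kb, and 37 mid-length peaks from above 10 to 11 kb. The shortest length of a member, 5 kb, was shared by those at chr2:154721001-154726000 and chr5:115802201-115807200, and a bordered peak of 4.8 kb at chr1:55156601-55161400 fell short. At the upper end, the member of 99 kb at chr7:36226801-36325800 was inside, and a bordered peak of 100 kb at chr11:3606801-3706800 was outside.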

How the data were processed

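Mononucleosomes released by micrococcal nuclease were immunoprecipitated, with 5% set aside as input, per the labels' protocols. Bowtie 1.0.0 and the mouse build mm9 are named in the submitters' processing notes. Peak caller, settings, pooling of libraries and sequencing depth are not known from the labels or the files. The authors deposited 1 list per mark with 3 columns (chromosome, start, end) and no score, read here as runs of 200 bp windows with both ends included; printed positions count from 1. H3K27me3 entries may bridge up to 10 kb, as the smallest gap of that list is 10.2 kb (1.2 kb for H3K36me3).

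Distances, lengths and coverage were computed with Python 3.11.15, NumPy 2.4.6 and SciPy 1.17.1, within the span of both lists on each chromosome; the rule was tested on simulated lists. Intervals of shares are exact (Clopper-Pearson, 95%), and those of medians come from order statistics. The members and lists were chosen with earlier results of these data known. As the lists name no library, no test over samples was possible, and peaks were not resampled. The regions named are the 3 longest two-sided and one-sided members, the 3 with the smallest summed borders, the 3 with the longest nearest H3K36me3 peak, and those next to each limit, with ties in length added afterwards. Alternatives were other distance limits, joined or longer H3K36me3 peaks, a looser rule on sharing, and autosomes only. Gene lists were not used here for want of an mm9 annotation.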

Additional observations from a re-analysis of the deposited data

How the results depend on the processing

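A total of 10 results were recomputed under 7 alternatives, and 54 of the 70 values stayed within 1.5 times of a count, within the 95% interval of a share or median, or within 1 SD over chromosomes of a coverage. The other 16 follow. A limit of 5 kb left 281 members, 17 of them two-sided (6.05%), and a limit of 20 kb gave 158 two-sided members (17.6%). Joining H3K36me3 peaks closer than 5 kb gave medians of 17.6 kb for bordering and 17.8 kb for other H3K36me3 peaks, and joining those closer than 10.2 kb gave 19.6 and 20.2 kb; joining lengthens peaks by construction and left the 613 members and 61 two-sided members as counts. Keeping only H3K36me3 peaks of the median length or longer left 306 members, 19 of them two-sided (6.21%) with a median of 57.2 kb, a median gap of 74.1 kb to the nearest other H3K27me3 peak, and H3K36me3 medians of 26.5 kb (bordering) and 26.2 kb (other); fewer H3K36me3 peaks were available by construction. The likeness of both neighbours, examined after the data were seen, ran from 0.0137 to 0.651 over its alternatives. K36M against wildtype was not compared, since the lists name no genotype. No paired analysis was possible because each group has 1 library and the lists name none.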
